A study of Mus musculus with 9 samples.

Results

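The genes examined here encode enzymes that modify, trim and crosslink collagen, together with the procollagen C-proteinase enhancers. The set holds 10 genes of the 56748 in the deposited count table, found by their symbols. They are 4 lysyl oxidases (Lox, Loxl2, Loxl3 and Loxl4), 2 lysyl hydroxylases (Plod1 and Plod2), 2 prolyl 4-hydroxylase catalytic subunits (P4ha1 and P4ha2) and 2 enhancers (Pcolce and Pcolce2). All 10 passed the filter on low counts and were tested.

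RNA was sequenced from mouse MLO-Y4 osteocyte-like cells grown on collagen-coated plates and sharing a transwell with primary chondrocytes of C57BL/6J mouse pups. MLO-Y4 is 1 immortalised line, derived from a mouse that carried a T antigen transgene driven by the osteocalcin promoter. In the control (3 libraries) the chondrocytes were left unstimulated. In the remaining groups (3 libraries each) the chondrocytes were given 10 ng/mL interleukin-1β (IL-1β) for 6 h and washed, and co-culture then lasted 24 h or 48 h. The culture time of the control is not given in the labels, so stimulation and time cannot be told apart in a difference from control. The labels call the line of the 48 h libraries MLO-Y5, MLO-Y6 and MLO-Y7, while the protocols name MLO-Y4 throughout.

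Fibrillar collagen is built as procollagen in the endoplasmic reticulum, where prolyl 4-hydroxylases stabilise the triple helix and lysyl hydroxylases prepare lysines for glycosylation and crosslinking. Outside the cell, proteinases of the BMP1 family remove the C-propeptide, helped by the enhancers, and copper-dependent lysyl oxidases then oxidise lysines and hydroxylysines so that neighbouring molecules become covalently bound. Osteocytes are embedded in a type I collagen matrix, and the pattern of lysine hydroxylation and crosslinking influences how bone bears load. The hydroxylases need oxygen, iron, ascorbate and 2-oxoglutarate.

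Libraries held 12250628 to 18515456 counts, with the 48 h libraries the deepest. Expression is given as CPM, the share of a library's counts on a per-million scale, after TMM scaling (trimmed mean of M values) with factors between 0.983 and 1.015. Of 8 osteocyte markers, Pdpn, Gja1, Cd44 and Phex passed the filter, while Mepe and Fgf23 had no reads, Sost had at most 1 count and Dmp1 at most 6 in any library. The osteocyte markers summed to 1946 to 2138 CPM in the control, 2249 to 2282.5 CPM at 24 h and 2869 to 2914 CPM at 48 h. Most of that sum was Gja1, which rose at 48 h from 1498 to 2413 CPM (adjusted p 1.14e-10 in edgeR), while Cd44 fell from 331 to 223 CPM (adjusted p 3.34e-08). Of 12 chondrocyte markers, Acan, Col9a1, Col9a2, Matn1 and Cnmd had no reads in any library, and Col2a1 had at most 7 counts. The summed chondrocyte markers, mostly Sox9, stood at 112 to 124 CPM in the control, 104 to 112 CPM at 24 h and 124 to 130 CPM at 48 h. Of 7 macrophage markers, Adgre1 had no reads and Ptprc at most 1 count in any library, and their sum was 18.7 to 20.4 CPM in the control, 24.2 to 26.5 CPM at 24 h and 21.0 to 24.4 CPM at 48 h. Among them Cd14 rose (0.62, adjusted p 0.000304) and Csf1r fell (-0.84, adjusted p 0.0377) at 24 h. Of 7 osteoblast markers, 5 fell at 48 h, where 24.4% of all tested genes fell, and Ibsp had no reads. The osteoblast markers summed to 5164 to 5334 CPM in the control, 5191 to 5400.3 CPM at 24 h and 3983 to 4014 CPM at 48 h. The part of these marker changes in the results that follow was not tested. In bulk samples, fewer cells of a type and less RNA per cell cannot be told apart.

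Levels can be compared between genes only per length, here as CPM per kilobase of the gene length in the deposited table. In the control, Pcolce had the highest level of the 10 genes at 226 ± 16.7 CPM per kb (SD, n = 3), followed by Lox at 191 ± 12.8 CPM per kb (SD, n = 3). P4ha1 came next at 73.5 CPM per kb, then Loxl3 at 52.3, Plod2 at 39.6, Plod1 at 27.3, P4ha2 at 13.0 and Pcolce2 at 10.6 CPM per kb. Loxl4 at 4.92 and Loxl2 at 1.83 CPM per kb were the lowest. The control libraries of neighbours in this order did not overlap, so that each step was larger than the spread between libraries. The ranking was not the same in the stimulated co-cultures. Lox stood at 298 CPM per kb at 24 h and 354 at 48 h, above Pcolce at 198 and 260. Plod2 reached 76.5 CPM per kb at 48 h, above Loxl3 at 62.4. At 24 h Plod2 (48.1) and Loxl3 (48.3) had overlapping libraries. Pcolce2 fell to 2.31 CPM per kb at 48 h, within the range of the Loxl2 libraries. These levels rest on the annotated length of each gene, which need not be the length of the transcript that the cells use.

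**Figure D1:**
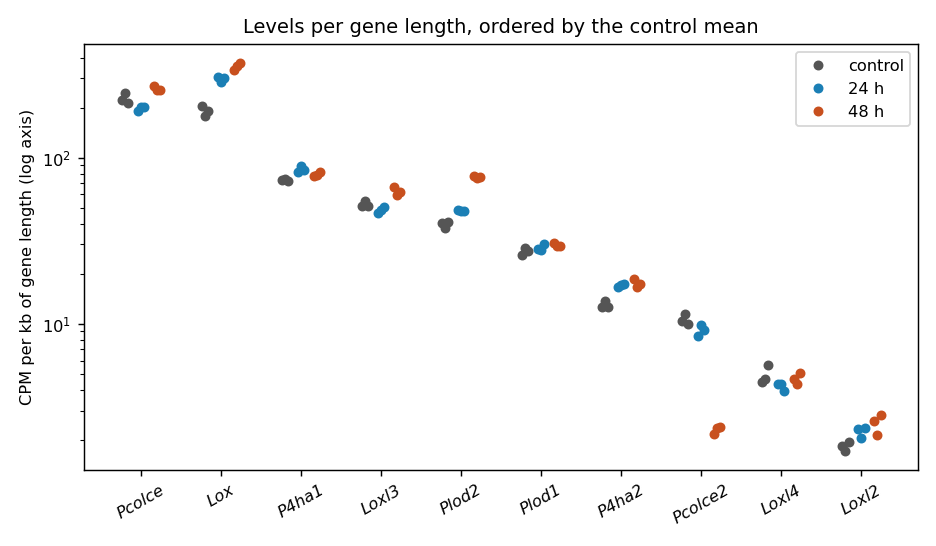
Level of the 10 enzyme genes in each of the 9 libraries, as CPM per kilobase of gene length on a log axis, ordered by the control mean. Each point is 1 library, coloured by group. The order of Pcolce and Lox is exchanged in the stimulated co-cultures, and Pcolce2 drops from 10.6 to 2.31 CPM per kb at 48 h.

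The comparisons with control asked how the enzyme genes differed after co-culture with stimulated chondrocytes. A gene is called higher or lower where the adjusted p of edgeR's quasi-likelihood test, with Benjamini-Hochberg adjustment over all 13812 genes tested, was under 0.05. At 48 h versus control, 6 of the 10 genes were called higher and 1 lower, where 22.0% of all tested genes were called higher and 24.4% lower. At 24 h versus control, 4 were called higher and 1 lower, against backgrounds of 3.25% and 2.90%. Stimulated and control libraries were fully separated in 9 of the 10 genes at 48 h (53.1% of all genes) and in 9 at 24 h (21.5% of all genes). The median log2 fold change of the 10 genes was 0.23 at 48 h and 0.14 at 24 h, where the median of all tested genes was -0.0022 and -0.0042. Both comparisons use the same 3 control libraries. The joint test of the 3 groups called 8 of the 10 genes, against 51.9% of all genes, and left out Loxl4 and Plod1.

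**Figure D2:**
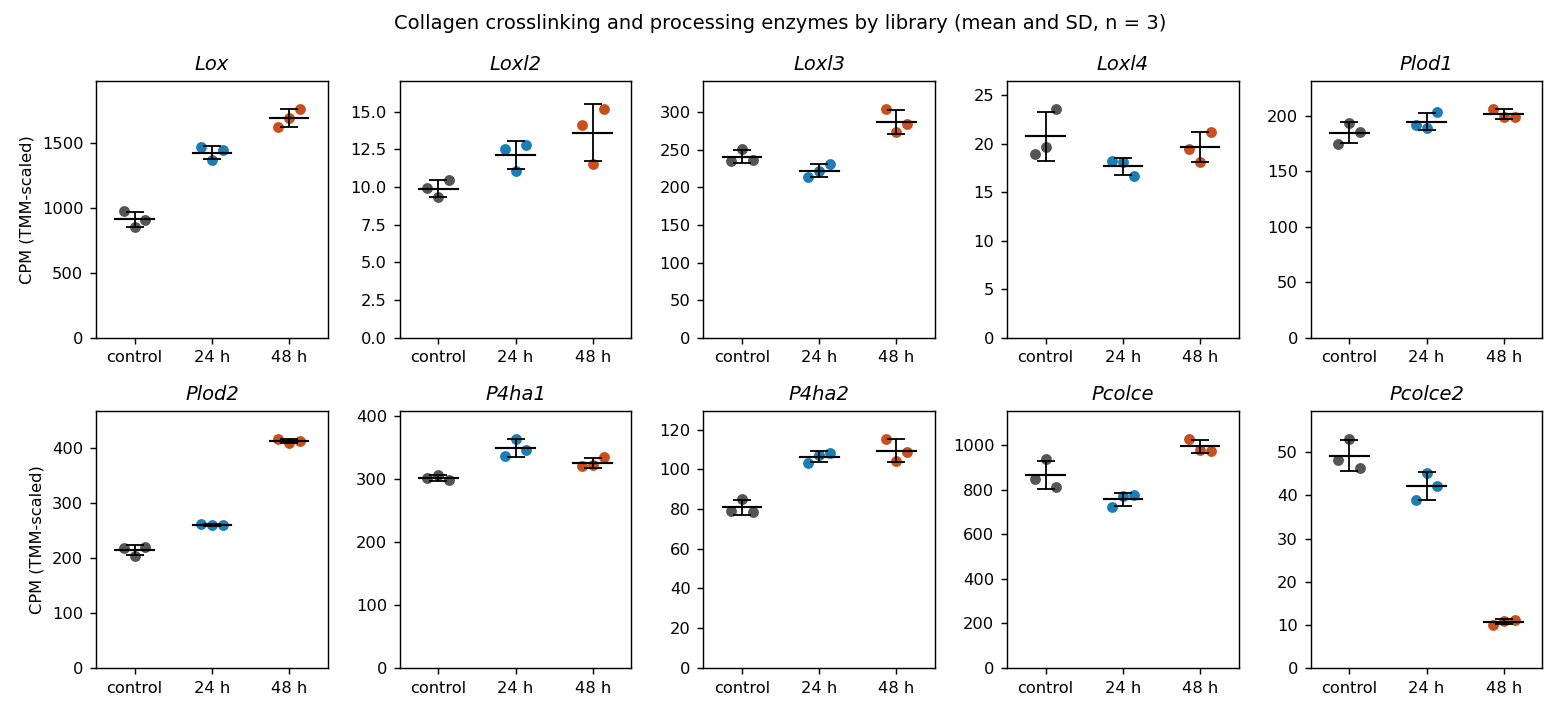
Expression of the 10 enzyme genes, as TMM-scaled CPM on linear axes from 0. Points are single libraries in the control, 24 h and 48 h groups, and bars give the mean and SD (n = 3). Lox and Plod2 are higher in every stimulated library than in every control library, and Pcolce2 at 48 h lies between 10.0 and 11.1 CPM.

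Lox encodes the prototype lysyl oxidase, which acts on fibrillar collagen and elastin. Coordinates are given on GRCm39, as in the deposited table. Lox (chromosome 18, 52649139 to 52662939) was measured at 973, 852 and 908 CPM in the control libraries, at 1465, 1367 and 1443 CPM at 24 h, and at 1620, 1693 and 1765 CPM at 48 h. The 3 groups did not overlap, with the control lowest and 48 h highest. Lox rose 1.56-fold at 24 h (log2 fold change 0.65, SE 0.05, adjusted p 7.27e-08) and 1.86-fold at 48 h (0.89, SE 0.05, adjusted p 6.43e-11). With its high level, Lox held most of the lysyl oxidase transcripts of these cells in every library. Its locus overlaps the antisense gene Gm41724, which had 28 to 80 counts per library beside at least 10416 for Lox.

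Loxl2 encodes a lysyl oxidase with scavenger receptor domains that also acts on basement membrane collagen. Loxl2 (chromosome 14, 69846517 to 69933283) was measured at 9.92, 9.32 and 10.5 CPM in the control, 12.5, 11.1 and 12.8 CPM at 24 h, and 14.1, 11.5 and 15.2 CPM at 48 h. All stimulated libraries lay above all control libraries, and the 2 stimulated groups overlapped each other. Loxl2 rose by 0.46 (log2, SE 0.12, adjusted p 0.00394) in the 48 h group. Its 24 h value of 0.29 (SE 0.12, adjusted p 0.202) was not called. These values rest on 114 to 285 counts per library.

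Loxl3 shares the domain layout of Loxl2. Loxl3 (chromosome 6, 83011154 to 83029543) was measured at 235, 251 and 236 CPM in the control, 214, 222 and 231 CPM at 24 h, and 305, 273 and 284 CPM at 48 h. The 48 h libraries stood above all others, and the 24 h libraries just below the control. Loxl3 rose at 48 h (log2 fold change 0.26, SE 0.05, adjusted p 0.000569), while its value at 24 h was -0.11 (SE 0.05, adjusted p 0.253). It shares 1297 bases with Htra2 on the opposite strand, a gene with 937 to 1176 counts per library, and whether strand was used in counting is not given in the sources used here. Loxl4 (chromosome 19, 42582421 to 42601252), the other gene of this subfamily, was called in none of the comparisons. It had 18.9, 19.7 and 23.6 CPM in the control, 18.2, 18.2 and 16.7 CPM at 24 h, and 19.5, 18.2 and 21.2 CPM at 48 h. Control and 48 h libraries overlapped, and the 95% interval of its log2 fold change at 48 h ran from -0.28 to 0.13. At 24 h it ran from -0.44 to -0.02 before adjustment (adjusted p 0.226).

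Loxl1, the remaining member of the family and known for its part in elastic fibres, was lower than control at 24 h and higher at 48 h. The control level was 46.4 ± 4.80 CPM (SD, n = 3). Libraries at 24 h averaged 37.9 ± 1.93 CPM (SD, n = 3), and those at 48 h averaged 73.2 ± 0.786 CPM (SD, n = 3). Loxl1 fell at 24 h (log2 fold change -0.29, adjusted p 0.0239) and rose at 48 h (0.66, adjusted p 4.58e-07).

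The lysyl hydroxylases moved unequally. Plod2 encodes the enzyme that hydroxylates lysines in collagen telopeptides, the step from which hydroxyallysine crosslinks are made. Plod2 (chromosome 9, 92424276 to 92490481) was measured at 218, 204 and 220 CPM in the control, 261, 259 and 259 CPM at 24 h, and 416, 408 and 413 CPM at 48 h. The groups did not overlap, and the stimulated groups were tight, with an SD of 1.01 CPM at 24 h and 3.89 CPM at 48 h. Plod2 rose 1.21-fold at 24 h (log2 fold change 0.28, SE 0.05, adjusted p 0.000556) and 1.93-fold at 48 h (0.95, SE 0.05, adjusted p 1.23e-11). This was the largest increase among the 10 genes at 48 h. The locus overlaps B430319G15Rik on the opposite strand, which had 32 to 74 counts per library.

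Plod1, which hydroxylates lysines within the helix, was called in neither comparison with control. Plod1 (chromosome 4, 147994210 to 148021224) was measured at 175, 193 and 185 CPM in the control, 192, 189 and 203 CPM at 24 h, and 206, 199 and 199 CPM at 48 h. The 48 h libraries lay just above the control. Its log2 fold change of 0.13 (SE 0.05, adjusted p 0.0541) was outside the threshold, and it passed in 9 of 17 alternative settings, with adjusted p between 0.00968 and 0.175. Plod3, which also glycosylates hydroxylysine, fell at 48 h (log2 fold change -0.30, adjusted p 0.000179) and had 0.000844 at 24 h (adjusted p 0.996).

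P4ha1 and P4ha2 encode alternative catalytic subunits of prolyl 4-hydroxylase, each assembled with the shared subunit P4hb. P4ha1 (chromosome 10, 59159118 to 59209126) was measured at 302, 307 and 298 CPM in the control, 337, 365 and 347 CPM at 24 h, and 321, 323 and 336 CPM at 48 h. All stimulated libraries exceeded all control libraries, and the 24 h libraries were the highest. P4ha1 rose in the 24 h group (log2 fold change 0.21, SE 0.05, adjusted p 0.00755). Its 48 h value of 0.11 (SE 0.05, adjusted p 0.0569) lay just outside the threshold, and it was called in 8 of 17 alternative settings with adjusted p between 0.0253 and 0.199.

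P4ha2 (chromosome 11, 53990921 to 54022491) was measured at 78.9, 85.1 and 78.4 CPM in the control, 103, 107 and 108 CPM at 24 h, and 115, 104 and 109 CPM at 48 h. The stimulated groups overlapped each other and stood apart from the control. P4ha2 rose by log2 fold changes of 0.40 at 24 h (SE 0.06, adjusted p 0.000185) and 0.44 at 48 h (SE 0.06, adjusted p 5.5e-06). P4hb also rose at both times, by 0.14 (adjusted p 0.0151) and 0.20 (adjusted p 6.45e-05). P4ha3, the other catalytic subunit, fell at 48 h with -0.27 (adjusted p 0.00533) and had 0.02 at 24 h (adjusted p 0.915).

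The procollagen C-proteinase enhancers bind the C-propeptide and speed its removal by BMP1 and its relatives. Pcolce2 held the largest change of the set. Pcolce2 (chromosome 9, 95519654 to 95580149) was measured at 48.3, 53.1 and 46.3 CPM in the control, 38.8, 45.2 and 42.3 CPM at 24 h, and 10.0, 11.0 and 11.1 CPM at 48 h. The 48 h libraries lay far below all others, and the 24 h libraries just below the control. Pcolce2 fell by 2.20 on the log2 scale at 48 h (SE 0.09, adjusted p 1.07e-12), so that its level in the control was 4.60-fold that at 48 h. This absolute log2 fold change was at the 99.6th percentile of all tested genes. At 24 h the value was -0.22 (SE 0.08, adjusted p 0.093), which was not called and which passed only without control replicate 3 (adjusted p 0.0429, over alternatives 0.0429 to 0.396). Plod2, which rose at 48 h, lies 3.03 Mb from Pcolce2 on the same chromosome. Any link between the position of these 2 genes and their changes was not tested.

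Pcolce (chromosome 5, 137603365 to 137612046), the widely expressed enhancer, was measured at 850, 936 and 811 CPM in the control, 725, 772 and 776 CPM at 24 h, and 1029, 980 and 974 CPM at 48 h. Libraries at 24 h were the lowest and libraries at 48 h the highest, with no overlap among the groups. Pcolce rose at 48 h (log2 fold change 0.20, SE 0.05, adjusted p 0.00281). It fell at 24 h (-0.19, SE 0.05, adjusted p 0.0253), a call lost in 6 of 17 alternatives (adjusted p 0.00212 to 0.185). Those 6 were the fit of only the 2 groups compared and the fits without control replicate 1 (0.0539), control replicate 2 (0.0845), 24 h replicate 1 (0.185), 24 h replicate 2 (0.0517) and 24 h replicate 3 (0.0617). Its gene model shares 1282 bases with Fbxo24 on the same strand, a gene with 6 to 27 counts per library. Bmp1, the main C-proteinase, was called at 48 h with 0.15 (adjusted p 0.028) and had 0.05 at 24 h (adjusted p 0.677).

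**Figure D3:**
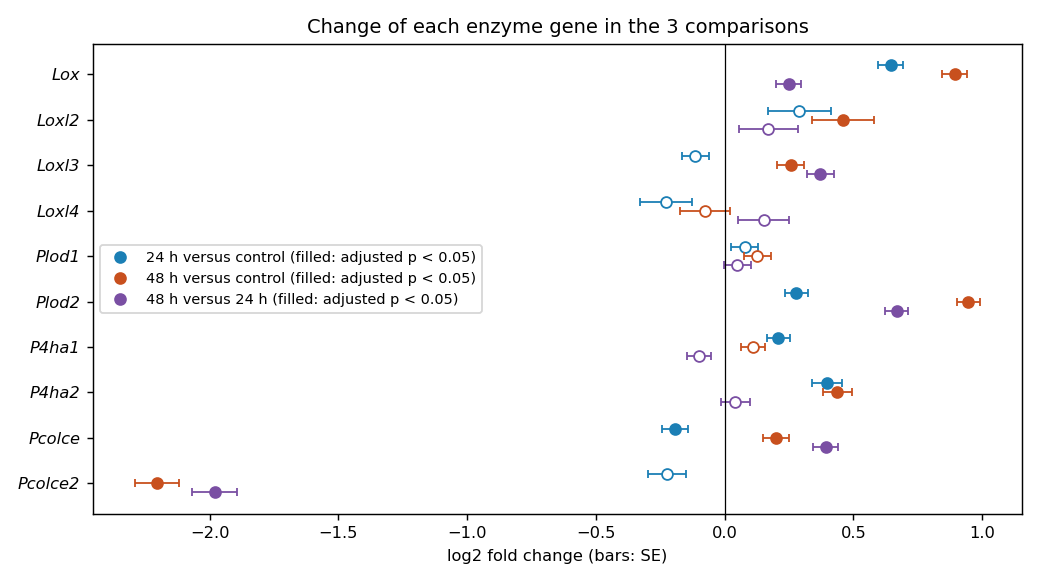
Log2 fold change of each enzyme gene at 24 h versus control, 48 h versus control and 48 h versus 24 h, with bars of 1 SE. Filled points have an adjusted p under 0.05 and open points do not. Pcolce2 at -2.20 and -1.98 stands apart from the other 9 genes, which lie between -0.23 and 0.95.

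The stimulated groups were also compared with each other to ask which genes differed between the lengths of co-culture. It called 4 of the 10 genes higher (23.7% of all genes) and 1 lower (25.4% of all genes) at 48 h, and the groups did not overlap in 6 (59.4% of all genes). Plod2 was higher after the longer co-culture (log2 fold change 0.67, SE 0.04, adjusted p 9.55e-10). Pcolce, Loxl3 and Lox followed with 0.39 (adjusted p 2.98e-06), 0.37 (adjusted p 1.1e-05) and 0.25 (adjusted p 0.000295). Pcolce2 was lower with -1.98 (SE 0.09, adjusted p 3.09e-12). P4ha1 had -0.10 (adjusted p 0.0783) with no overlap between the groups, and P4ha2 had 0.04 (adjusted p 0.572) with a 95% interval from -0.08 to 0.16. Set beside the values against control, Lox had 0.65 at 24 h of 0.89 at 48 h, whereas Plod2 had 0.28 of 0.95.

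Ratios of paralogous genes within a library need no scaling between libraries. Of 18 ratio comparisons, 13 had no overlap between groups. Ratios of other gene pairs were not computed, so this count has no background of its own. Among single genes, 53.1% separated control from 48 h libraries, 21.5% control from 24 h libraries and 59.4% the stimulated groups. The 18 are also not independent, since they reuse the same libraries and several share Loxl2 as denominator. With 3 libraries against 3, the two-sided exact permutation test cannot go below 0.1 (0.138 after Benjamini-Hochberg adjustment over the 18), so the ratios are given as measurements. The ratio of Pcolce2 to Pcolce, per gene length, averaged 0.0470 ± 0.00011 (SD, n = 3) for control libraries. It was 0.0459 ± 0.0022 (SD, n = 3) after 24 h and 0.00888 ± 0.00074 (SD, n = 3) after 48 h. The 3 control libraries had nearly the same ratio (0.0469, 0.0469 and 0.0471), and the 24 h libraries (0.0443, 0.0484 and 0.0450) lay on both sides of them. At 48 h the control ratio was 5.30-fold that of the stimulated co-culture.

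The ratio of Plod2 to Plod1 averaged 1.46 ± 0.124 (SD, n = 3) for control libraries, 1.67 ± 0.0659 (SD, n = 3) after 24 h and 2.57 ± 0.0376 (SD, n = 3) after 48 h. It was higher in every 48 h library than in every other library. The ratio of P4ha1 to P4ha2 went the other way, with 5.68 ± 0.182 (SD, n = 3), 4.99 ± 0.152 (SD, n = 3) and 4.53 ± 0.278 (SD, n = 3), and the groups did not overlap. P4ha1 remained the more abundant catalytic subunit in every library. Lox exceeded Loxl2 per length by a factor of 104 ± 6.44 (SD, n = 3) for control libraries, 133 ± 6.02 (SD, n = 3) after 24 h and 143 ± 20.7 (SD, n = 3) after 48 h. Relative to Loxl2, Loxl4 had 2.68 ± 0.228 (SD, n = 3), 1.88 ± 0.217 (SD, n = 3) and 1.86 ± 0.141 (SD, n = 3), with both stimulated groups below the control. Loxl3 relative to Loxl2 was 28.6 ± 2.63 (SD, n = 3), 21.6 ± 1.83 (SD, n = 3) and 25.1 ± 2.98 (SD, n = 3), and its control and 48 h libraries overlapped.

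**Figure D4:**
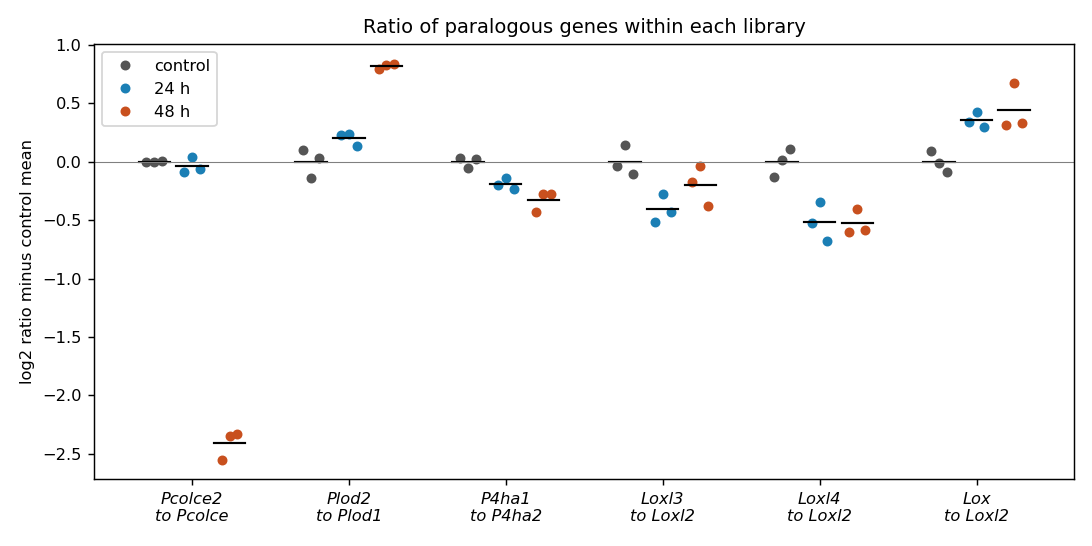
Log2 ratio of 6 pairs of enzyme genes within each library, as the difference from the control mean of the pair. Points are libraries coloured by group and lines are group means. The ratio of Pcolce2 to Pcolce is lower by 2.41 at 48 h and by 0.035 at 24 h, and that of Plod2 to Plod1 is higher by 0.82 and 0.20.

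Other genes of collagen biosynthesis, and genes of oxygen sensing and cofactor supply, were read in 6 lists. The lists were chosen with earlier results of these data known, so their counts and medians are descriptions. The oxygen sensing and cofactor list also holds hypoxia-induced genes that are not collagen enzymes, namely Car9, Vegfa, Bnip3, Ndrg1, Pdk1 and Ankrd37. In this mixed list, 11 of 15 tested genes rose at 48 h (median log2 fold change 0.69), where 22.0% of all genes were called higher. At 24 h 9 rose (median 0.38), against 3.25% of all genes. The remaining genes of the list were not called. Among genes with at least 5 CPM in a group, those called with the largest changes at 48 h were Car9, Ndrg1 and Ankrd37, with 3.89 (adjusted p 1.73e-10), 1.73 (adjusted p 2.16e-13) and 1.44 (adjusted p 1.16e-05). At 24 h they were Egln3, Bnip3 and Vegfa, with 0.85 (adjusted p 0.00304), 0.62 (adjusted p 8.37e-07) and 0.58 (adjusted p 4.32e-07). Not all of these were called at both times: Ndrg1 (0.12, adjusted p 0.287) and Ankrd37 (0.38, adjusted p 0.396) were not called at 24 h, and Egln3 (0.36, adjusted p 0.0912) was not called at 48 h. Their part in the change of the enzyme genes was not tested.

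Of 12 tested chaperones and secretion factors of procollagen, 4 fell, 1 rose and 7 were not called at 48 h (median -0.020). Of all genes, 24.4% were called lower and 22.0% higher at that time. At 24 h 1 rose (median 0.12), where 3.25% of all genes were called higher. Creb3l1, a transcription factor for collagen secretion genes, stood at 56.1 CPM in the control, 67.2 CPM at 24 h and 30.1 CPM at 48 h. It rose at 24 h (0.26, adjusted p 0.0414) and fell at 48 h (-0.90, adjusted p 2.41e-08). Fkbp10, a foldase that works with the Plod2 enzyme, fell at 48 h (-0.46, adjusted p 1.11e-05), and so did the collagen chaperone Serpinh1 (-0.28, adjusted p 6.18e-05), which is named after its values were seen. Fkbp7, a related foldase, rose (0.56, adjusted p 0.00641). Of 10 tested genes of other hydroxylation and glycosylation enzymes, 2 rose and 3 fell at 48 h (median -0.15), near the shares of all genes. P4hb alone was called at 24 h (median 0.045). P3h3, a prolyl 3-hydroxylase family member, rose (0.47, adjusted p 1.39e-06), and the galactosyltransferase gene Colgalt1 fell (-0.37, adjusted p 6.95e-06).

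Of 8 procollagen proteinases 4 were tested, and 3 of them rose at 48 h (median 0.35) and 1 at 24 h (median -0.071). Of all genes, 22.0% and 3.25% were called higher at these times. Tll1, a relative of Bmp1, rose from 5.36 to 11.7 CPM at 48 h (1.10, adjusted p 0.000202), and the N-proteinase Adamts2 rose by 0.54 (adjusted p 0.000856). Adamts14, another N-proteinase, rose at 24 h (0.47, adjusted p 0.00144). Of 12 other crosslinking enzymes and lysyl oxidase partners 7 were tested. Of these, 5 rose at 48 h (median 0.51), among them Loxl1, Fbln5 (0.59, adjusted p 4.36e-07) and Fn1 (0.52, adjusted p 6.21e-08). At 24 h 3 of the 7 fell (median -0.14), namely Tgm2 (-0.33, adjusted p 0.000434), Loxl1 and Fbln5 (-0.28, adjusted p 0.0146). The shares of all genes were 22.0% called higher at 48 h and 2.90% called lower at 24 h. Fibulin-5 and fibronectin, which Fbln5 and Fn1 encode, are matrix proteins that bind lysyl oxidases.

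The fibrillar collagen chains are among the substrates of the collagen hydroxylases, the procollagen proteinases and the lysyl oxidases. Of 9 tested chains, 6 rose and 1 fell at 48 h (median 0.31), where 22.0% of all genes were called higher and 24.4% lower. At 24 h 2 rose and 2 fell (median 0.091), against 3.25% and 2.90% of all genes. Col3a1 rose from 804 CPM in the control to 980 CPM at 24 h (0.29, adjusted p 5.97e-05) and 1758 CPM at 48 h (1.13, adjusted p 2.16e-13). Col5a2 rose at both times (0.36 and 0.31, adjusted p 6.52e-06 and 3.17e-06), and Col5a3 rose at 48 h (0.69, adjusted p 6.3e-09). Col1a1, the main chain of bone collagen and also named after its values were seen, fell in both stimulated groups, by 0.20 on the log2 scale after 24 h (adjusted p 0.00312) and by 0.14 after 48 h (adjusted p 0.0085). Col1a2 fell at 24 h (-0.33, adjusted p 0.000181) but rose at 48 h (0.12, adjusted p 0.0419).

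**Figure D5:**
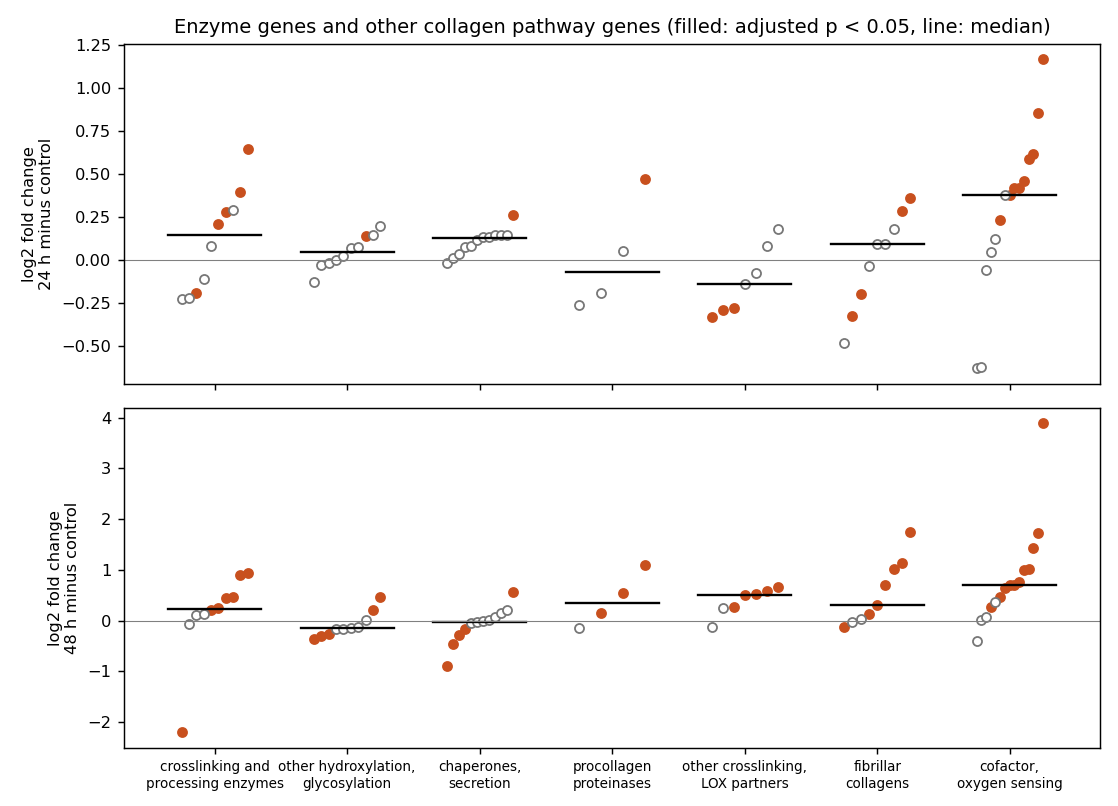
Log2 fold changes of the 10 enzyme genes and of 6 lists of other genes at 24 h (upper panel) and 48 h (lower panel) versus control, on separate vertical axes. The lists cover collagen pathway genes and a mixed list of oxygen sensing, cofactor and hypoxia-induced genes. Each point is 1 tested gene, filled where the adjusted p was under 0.05, and lines are medians. The mixed list has the highest median at both times, with 0.38 and 0.69, and the 10 enzyme genes have 0.14 and 0.23. The members and lists were chosen with earlier results of these data known.

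Because several enzyme genes rose beside oxygen sensing and hypoxia-induced genes, the 250 bases before the start of each canonical GENCODE transcript on GRCm39 were searched. The search was for the core of the hypoxia response element, ACGTG or GCGTG on either strand. At least 1 such core was found in the windows of 8 of the 10 genes, against 53.9% of 11764 windows of tested genes. At least 2 were found in 5 genes, against 25.3%. Plod2 had 4 cores, Lox and P4ha2 had 3, P4ha1 and Loxl3 had 2, Plod1, Loxl4 and Pcolce2 had 1, and no core lay in the windows of Loxl2 and Pcolce. A match is a description of these letters and not a binding site. The windows are also not all upstream of the gene. Those of Pcolce (137609750 to 137609999) and P4ha2 (53991500 to 53991749) lay within the gene's deposited coordinates. That of Lox (52662782 to 52663031) lay partly within them, since the deposited Lox gene ends at 52662939. All 3 Lox cores fell in that inner part. The windows of Lox, Loxl2, Plod1, Plod2 and P4ha2 overlapped annotated exons of their own genes, and that of Plod2 also an exon of B430319G15Rik. The following stretches show the closest pair of cores in the windows of Plod2 and P4ha2, both of which rose at both times. Capitals mark the cores, in either orientation, and the strand is that of the gene (chr9:92424158-92424187, plus strand, and chr11:53991664-53991693, plus strand).
Plod2: gccccgGCGTGaggcggtgCACGTaggcgt
P4ha2: catcgcatACGTGcagcGCGTGgcggctcg

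The windows of P4ha1, called higher at 24 h, and of Pcolce2, the gene with the largest decrease, are also shown, here whole (chr10:59158842-59159091 and chr9:95519216-95519465, both plus strand). The P4ha1 cores begin 137 and 100 bases before the start, and the Pcolce2 core begins 173 bases before it.
P4ha1: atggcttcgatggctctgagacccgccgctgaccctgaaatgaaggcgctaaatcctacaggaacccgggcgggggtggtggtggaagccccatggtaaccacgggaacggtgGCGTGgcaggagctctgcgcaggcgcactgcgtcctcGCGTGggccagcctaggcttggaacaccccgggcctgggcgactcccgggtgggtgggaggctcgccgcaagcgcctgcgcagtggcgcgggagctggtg
Pcolce2: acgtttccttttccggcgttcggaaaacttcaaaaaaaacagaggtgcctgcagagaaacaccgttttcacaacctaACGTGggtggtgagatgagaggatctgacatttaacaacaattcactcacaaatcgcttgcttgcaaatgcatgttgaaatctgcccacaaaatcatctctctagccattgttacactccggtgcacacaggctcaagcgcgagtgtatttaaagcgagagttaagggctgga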

How the data were processed

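Libraries were directional and paired-end. According to the labels and the study's methods, the authors trimmed the reads, aligned them to GRCm39 with HISAT2 and counted them per gene with featureCounts, and the methods also name RSEM. The deposited table holds raw counts per gene, and neither the strand setting nor the treatment of reads with several matches is given in the sources used here. Columns were matched to samples by name. Genes were kept by edgeR's filterByExpr (minimum count 10), which left 13812 of 56748 genes and 99.9% of the counts. All 9 libraries entered 1 quasi-likelihood fit in edgeR 4.0.16 (R 4.3.3) with TMM scaling, and p-values were adjusted by Benjamini-Hochberg over all genes tested. The labels do not say that replicates came from separate cultures, so p-values measure the spread between these samples, which may be technical. Totals of 12250628 to 18515456 counts set the precision. Genes of other lists were named if called, free of overlap between groups and at 5 CPM or more in either group, at most 3 per comparison, with Loxl1, Plod3, P4ha3, P4hb and Bmp1 named in any case. The members and lists were chosen with earlier results of these data known. Alternatives covered DESeq2 1.42.0, limma-voom, scaling, filters, thresholds, the replicate block, fits of only 2 groups and leaving out each library. The scripts were tested on simulated data.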

Additional observations from a re-analysis of the deposited data

Results flagged for a closer look

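Of the 10 enzyme genes, 5 differed between 48 h and 24 h of co-culture by a direct test of that difference in edgeR's quasi-likelihood fit, which does not use the control as reference. Of all tested genes, 23.7% were called higher and 25.4% lower in that test, so 5 of 10 is near the background. Lox was higher at 48 h by a log2 fold change of 0.25 (adjusted p 0.000295), in 3 of 3 libraries. Loxl3 was higher by 0.37 (adjusted p 1.1e-05), Plod2 by 0.67 (adjusted p 9.55e-10) and Pcolce by 0.39 (adjusted p 2.98e-06), each with all 3 libraries at 48 h above all 3 at 24 h. Pcolce2 had -1.98 (adjusted p 3.09e-12), with all 3 libraries at 48 h below all 3 at 24 h.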

How the results depend on the processing

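The calls of Lox, Plod2 and P4ha2 at both times, and of Loxl2, Loxl3, Pcolce and Pcolce2 at 48 h versus control, held in all 17 alternatives that kept the threshold. So did the call of P4ha1 at 24 h versus control (adjusted p 0.000615 to 0.0431). With a log2 fold change of at least 1 required, 1 of the 10 genes was called at 48 h versus control. The number was 0 for 24 h against control (edgeR, 9 with an unadjusted p under 0.05) and 1 between 24 h and 48 h. Of all genes, 705, 63 and 806 were called in that order. The 9 does not use the fold change requirement. The share of all genes under that unadjusted p was not computed, so the 9 has no background. At an adjusted p under 0.01, 464 genes were called at 24 h versus control. Leaving out 1 library at a time gave 518 to 1475 genes at 24 h versus control, against 849 with all libraries, the highest without control replicate 3 (1475) and the lowest without 24 h replicate 3 (518) and 24 h replicate 1 (524), and 4 to 6 of the 10 enzyme genes. Loxl4 at 48 h versus control (-0.08) turned positive (adjusted p 0.763, over alternatives 0.355 to 0.882) without control replicate 3, and leaving out 1 library at a time gave -0.134 to 0.0417. The cause of these shifts was not tested. DESeq2 called 9, 5 and 5 of the 10 genes in the comparisons of 48 h with control, 24 h with control and 48 h with 24 h, and 5900, 875 and 6270 of the 13812 genes tested. No pairing by replicate number was seen (correlations of deviations -0.0493 to 0.0775), which does not exclude that the libraries were paired. With the replicate block 7, 5 and 5 of the 10 genes were called, and 8 in the joint test. Of all genes, 6468, 958, 6810 and 7278 were called with it. Loxl2 had as few as 114 counts in a library and Pcolce2 as few as 175, which limits their precision.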
